A study of Mus musculus with 48 samples.

Results

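The collagen chain family was chosen with earlier results of these data known, and its members were taken by name. They were every gene in both count tables whose symbol is Col, a number, the letter a and a number. There were 44 such genes among 55450, and all 44 had a coding sequence in the annotation. By the way their products assemble, 11 were fibrillar, 6 belonged to the type IV networks of basement membranes, 6 to type VI beaded filaments, 3 to short chain networks (types VIII and X), 1 to anchoring fibrils (type VII), 9 to the fibril associated collagens with interrupted triple helices, called FACIT, 2 to the multiplexins (types XV and XVIII), 4 to the transmembrane collagens and 2 to no larger class (types XXVI and XXVIII).

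Levels were measured by bulk RNA-seq in cultures of inguinal white adipose tissue (iWAT) preadipocytes and of mouse embryonic fibroblasts (MEFs) from C57BL/6 mice. WT cells were compared with DKO cells, which lack the nucleosome-binding proteins HMGN1 and HMGN2 in every cell of the animal (Hmgn1-/-Hmgn2-/-). Preadipocytes from young adult mice were collected before induction (day 0) and at days 3, 6 and 9, and MEFs from mid-gestation embryos at days 0, 4, 8 and 12. Cells of both genotypes passed through the same media: insulin, dexamethasone, IBMX, T3 and rosiglitazone first, then insulin with T3 alone. By the protocol the first medium lasted 4 days for preadipocytes and 8 days for MEFs, and the second 4 days for each. Each cell type, day and genotype had 3 libraries, 48 in all. The study calls its replicates biological. Nothing in the labels ties the libraries of a group to separate animals or cultures, so every p-value measures the spread between these libraries. Preadipocytes were grown on collagen-coated plates and MEFs on tissue culture plates.

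Collagen chains wind together into a triple helix, which needs a glycine at regular steps along each chain, the Gly-X-Y repeat. Fibroblasts and preadipocytes secrete fibrillar types I, III and V as procollagens, whose ends are cut off outside the cell before fibrils form. Adipocytes wrap themselves in a basement membrane of type IV collagen and are embedded in a type VI network, so a cell that turns from preadipocyte to adipocyte is known to change the mix of collagens that it makes.

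Fibrillar chains have a long unbroken repeat and network chains an interrupted one, which is why the following coding stretches are shown, 5′ to 3′ on the coding strand, with each glycine codon in capitals. The first pair are the opening codons of the longest repeat of the fibrillar Col1a1 (codons 168 to 191, gene on chromosome 11, 94936224 to 94953042, plus strand, GRCm38) and Col3a1 (codons 164 to 187, chromosome 1, 45311538 to 45349706, plus strand). The second pair span a break in the repeat of the network chain Col4a1 (codons 154 to 181, chromosome 8, 11198423 to 11312826, minus strand) and of the multiplexin Col15a1 (codons 617 to 637, chromosome 4, 47208161 to 47313167, plus strand).
Col1a1: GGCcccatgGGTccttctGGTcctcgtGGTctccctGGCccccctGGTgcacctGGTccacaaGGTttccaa
Col3a1: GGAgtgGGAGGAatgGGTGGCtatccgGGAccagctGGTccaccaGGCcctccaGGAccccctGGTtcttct
Col4a1: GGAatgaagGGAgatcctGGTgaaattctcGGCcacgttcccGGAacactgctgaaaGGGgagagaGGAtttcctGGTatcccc
Col15a1: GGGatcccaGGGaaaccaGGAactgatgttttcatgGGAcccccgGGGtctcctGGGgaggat
In Col1a1 a capital codon opens every group of 3, whereas Col4a1 and Col15a1 lose the spacing within the stretch. Counted as runs of at least 5 Gly-X-Y triplets, the 11 fibrillar genes each held 1 long run of 216 to 344 triplets (338 in Col1a1, 344 in Col3a1) in 2 or 3 runs. The 6 type IV genes held 22 to 27 shorter runs, the longest of 39 to 66 triplets. Type VI chains reached 37 to 87 triplets, FACIT chains 32 to 113 and the multiplexins 30, so the longest run sets the fibrillar class apart but not the other classes from each other.

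The position of the genes is also shared within classes. Col4a1 and Col4a2 start head to head on chromosome 8 and their 5′ ends overlap by 22 bp. The Col4a3 and Col4a4 starts lie 71 bp apart on chromosome 1 and those of Col4a5 and Col4a6 1308 bp apart on chromosome X, again head to head. Col3a1 and Col5a2 lie tail to tail on chromosome 1 with 24614 bp between them. Reads at the overlapping starts of Col4a1 and Col4a2 can be told apart only if counting used the strand, which is not stated for these counts.

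The upstream bases of 4 fibrillar genes are given because 3 of them (Col1a2, Col3a1 and Col5a1) were lower in DKO preadipocytes at day 6, and the fourth (Col5a3) rose over the WT course while Col1a2 and Col5a1 fell. The windows are the 250 bases before the RefSeq start (GRCm38.p6) on the gene's strand, with the letters of CCAAT, of GGGCGG and of TATAAA in capitals wherever they occur on either strand. They lie at chr6:4505368-4505617 (plus) for Col1a2, chr1:45311288-45311537 (plus) for Col3a1, chr2:27886175-27886424 (plus) for Col5a1 and chr9:20815068-20815317 (minus) for Col5a3. The RefSeq start of Col1a2 lies 804 bp inside the gene as GENCODE draws it.
Col1a2: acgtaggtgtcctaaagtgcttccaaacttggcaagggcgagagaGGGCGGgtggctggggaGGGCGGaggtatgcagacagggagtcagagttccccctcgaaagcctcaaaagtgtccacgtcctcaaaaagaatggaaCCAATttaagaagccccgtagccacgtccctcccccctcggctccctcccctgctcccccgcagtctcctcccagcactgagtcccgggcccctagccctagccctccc
Col3a1: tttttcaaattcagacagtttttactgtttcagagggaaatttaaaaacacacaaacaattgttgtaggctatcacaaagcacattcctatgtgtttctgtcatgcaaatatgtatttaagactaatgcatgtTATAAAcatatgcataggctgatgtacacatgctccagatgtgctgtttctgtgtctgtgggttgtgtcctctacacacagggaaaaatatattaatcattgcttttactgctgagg
Col5a1: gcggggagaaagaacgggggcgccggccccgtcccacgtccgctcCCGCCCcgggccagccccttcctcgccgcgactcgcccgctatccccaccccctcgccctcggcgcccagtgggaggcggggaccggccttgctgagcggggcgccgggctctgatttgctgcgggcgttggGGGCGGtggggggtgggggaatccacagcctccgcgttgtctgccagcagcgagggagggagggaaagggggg
Col5a3: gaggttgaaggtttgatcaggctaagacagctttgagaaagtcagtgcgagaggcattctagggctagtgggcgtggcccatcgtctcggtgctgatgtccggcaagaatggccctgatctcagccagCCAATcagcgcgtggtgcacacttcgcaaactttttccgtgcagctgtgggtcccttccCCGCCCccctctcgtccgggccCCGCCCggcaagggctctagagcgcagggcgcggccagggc
Col1a2 and Col5a3 each held 1 CCAAT and 2 GGGCGG, Col5a1 held 2 GGGCGG, and Col3a1 held 1 TATAAA. The 35 members with a RefSeq window had 38 windows, of which 13 held CCAAT, 22 GGGCGG and 5 TATAAA. Among all 32851 windows of this length the shares were 33.8% for CCAAT, 32.7% for GGGCGG and 12.4% for TATAAA. These are matches of letters and say nothing of binding.

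Library totals ran from 18962481 to 36006679 expected counts. Values are CPM, the counts of a gene scaled to a fixed library total, with TMM factors set within a cell type. A gene was called when its Benjamini-Hochberg adjusted p from edgeR was below 0.05 and its change at least 1.5-fold, and "rose" and "fell" are used of called genes only. Log2 fold changes carry their standard error after ±. Hmgn2 was at most 0.33 CPM in any DKO library, while Hmgn1 RNA stayed countable in DKO cells (85.3, 93.8 and 97.6 CPM at preadipocyte day 0, against 155, 130.1 and 164 in WT), so counts per gene cannot show the Hmgn1 deletion. Some libraries stood apart from their group in collagen levels and are named beside the results they touch: DKO replicate 2 of preadipocyte day 9, DKO replicate 1 of MEF day 0, WT replicate 1 of MEF day 4, and WT replicate 2 and DKO replicate 3 of MEF day 8.

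Before induction, Col1a1, Col3a1 and Col1a2 led the collagen genes in both cell types. All collagen genes together took 5.39% ± 0.108 (SD, n = 3) of the counts in WT preadipocytes at day 0 and 5.11% ± 0.183 in WT MEFs. Levels were also divided by the length of all annotated exons of a gene, which sets different genes side by side only roughly. On this scale the order in WT preadipocytes was Col1a1 (1469 CPM per kb), Col3a1 (887), Col1a2 (745), Col5a2 (502), Col4a1 (409.9) and Col12a1 (385). In WT MEFs it was Col1a1 (1319.6), Col3a1 (1038), Col1a2 (929), Col5a1 (490.1) and Col6a1 (379.7). The per-length level of Col1a2 is divided by an exon union of 12426 bp, against 6563 bp for Col1a1. The order therefore depends on the annotated lengths, and a ratio of these levels is used only between libraries. By CPM alone Col1a2 (9478, 8605 and 9682) was above Col3a1 (9355, 8560.4 and 8212) in each WT preadipocyte library. At the other end, Col9a1 and Col13a1 had a count in 24 of 48 libraries, and neither Col13a1 nor Col9a1 exceeded 0.730 CPM in any library.

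Between the undifferentiated cell types, 40 collagen genes were tested, and 23 were higher and 7 lower in WT MEFs than in WT preadipocytes. Over all genes the shares were 19.9% and 18.7%. The median log2 difference was 0.78 over the collagen genes and 0.02 over all 15726 genes tested. The count filter ran on both cell types together, so a gene near 0 counts in 1 of them was tested through the other. Such genes, Col6a5 and Col26a1 among them, could be called only as higher in the cell type that has them. The split and the median are therefore partly set by the filter. In the day 0 fits of both genotypes, 32 collagen genes passed it in preadipocytes and 42 in MEFs. All 6 type VI genes were called, 5 of them higher in MEFs. Col6a5 was at 11.1, 8.18 and 9.06 CPM in the MEF libraries and 0.0409, 0.131 and 0.0465 in the preadipocyte libraries, and Col26a1 was at 3.29, 3.88 and 2.68 CPM against 0 counts in every WT preadipocyte library. Col27a1, a fibrillar chain known from cartilage, was at 51.4, 51.7 and 52.8 against 13.4, 13.6 and 13.1 CPM (log2 fold change of 1.78 ± 0.06, adjusted p = 8.24e-07). The 3 MEF libraries did not overlap with the 3 preadipocyte libraries in any of these genes, nor in 71.4% of all genes. The CPM and marker sums carry TMM factors set within each cell type, whereas the fold changes come from a fit that scaled both together. Ratios of CPM between the cell types therefore differ from the fold changes. Higher in preadipocytes were the abundant chains Col5a2 (log2 fold change -1.07 ± 0.11, adjusted p = 8.09e-05), Col6a3 (log2 fold change -0.73 ± 0.09, adjusted p = 2.09e-04) and Col4a1 (log2 fold change -1.22 ± 0.19, adjusted p = 0.00107). Markers of other cell types differed too: 6 of 6 leukocyte markers were higher in MEFs (6344 to 8412 against 118 to 439 CPM in sum), and of 6 smooth muscle or pericyte markers 3 were lower and 1 higher (485 to 821 against 3243 to 3813). Their part was not tested. Each cell type came as its own table and culture, so cell type cannot be told apart from either.

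Over the WT browning course 5 fibrillar chains and Col4a5 fell, whereas Col5a3, Col15a1 and a pair of type VI chains rose. From day 0 to day 9, 32 collagen genes were tested, of which 8 rose and 12 fell, where 25.8% of all genes rose and 27% fell. The median log2 fold change was -0.65 over the collagen genes and -0.01 over all genes. Of 10 fibrillar genes 2 rose and 5 fell, of 6 type IV genes 3 fell, and of 3 type VI genes 2 rose.

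Among the fibrillar chains, Col5a2, a partner chain in type V fibrils, had the smallest p of those that fell. Its level was 5228, 5022 and 4188 CPM in the 3 WT libraries at day 0 and 1191, 1095 and 1089 at day 9 (log2 fold change -2.10 ± 0.18, adjusted p = 6.67e-07). Col1a1, the main chain of type I collagen, went from 10063, 9532 and 9322 to 2817, 2724 and 3336 CPM (log2 fold change of -1.71 ± 0.17, adjusted p = 2.11e-06). Col5a1 went from 2379.7, 2639 and 2036 to 964, 702 and 869.9 (log2 fold change -1.48 ± 0.16, adjusted p = 5.01e-06). In each of these genes every day 9 library lay below every day 0 library, and 75.7% of all genes had no overlap between these days. Col1a2 fell alike (9478, 8605 and 9682 to 3436, 3208 and 3726 CPM, log2 fold change of -1.42 ± 0.17, adjusted p = 1.00e-05), and Col11a1, a chain known from cartilage fibrils, fell by 2.13 on the log2 scale. Col5a3, the third type V chain, moved the opposite way. It was at 61.9, 54.3 and 31.9 CPM at day 0, 41.2, 76.3 and 44.2 at day 3, 278, 359 and 294 at day 6 and 464, 405 and 431 at day 9 (log2 fold change 3.13 ± 0.29, adjusted p = 3.45e-06). The called step of that gain lay between days 3 and 6 (log2 fold change 2.54 ± 0.28, adjusted p = 1.89e-05). Col11a2, at 2.62, 1.96 and 2.0 CPM on day 0 and 9.88, 6.43 and 4.93 on day 9, also rose (log2 fold change 1.68 ± 0.29, adjusted p = 2.74e-04).

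Col3a1, the homotrimeric fibrillar chain of soft tissues, did not follow Col1a1. It rose from 9355, 8560.4 and 8212 CPM at day 0 to 14586, 27191 and 18343 at day 3 (log2 fold change 1.21 ± 0.19, adjusted p = 4.64e-04), stood at 8218, 7187 and 8723 at day 6 after a fall (log2 fold change -1.30 ± 0.19, adjusted p = 9.78e-05), and was at 5853, 6240.0 and 6194 at day 9. Every day 3 library was above every library of the other WT days. The ratio of Col3a1 to Col1a1 per kilobase was 0.622, 0.60 and 0.589 in the WT libraries of day 0, 3.88, 3.71 and 3.92 at day 6 and 1.39, 1.53 and 1.24 at day 9. The ratio of Col1a1 to Col1a2 went from 1.98 ± 0.140 at day 0 to 1.26 ± 0.143 at day 6 and 1.62 ± 0.0722 at day 9 (SD, n = 3). Col1a1, which fell from day 3 to day 6 (log2 fold change -1.57 ± 0.16, adjusted p = 5.94e-06), rose again from day 6 to day 9 (1416, 1296 and 1486 to 2817, 2724 and 3336 CPM, log2 fold change of 1.05 ± 0.16, adjusted p = 7.99e-04).

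**Figure D1:**
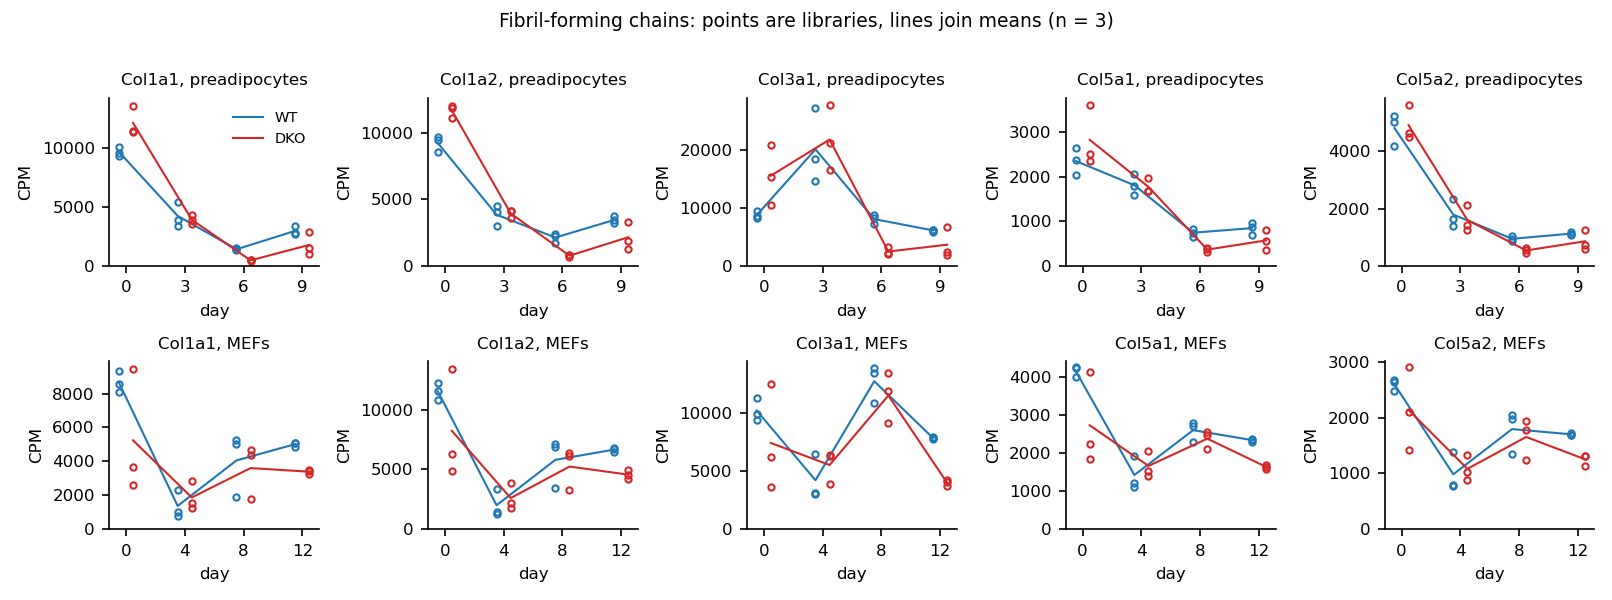
CPM (linear axis from 0) of Col1a1, Col1a2, Col3a1, Col5a1 and Col5a2 by day in preadipocytes (top) and MEFs (bottom), with 1 point for each library and lines through the means of 3 libraries, WT in blue and DKO in red. At preadipocyte day 6 the DKO points of Col1a1 lie between 442 and 494 CPM, below the WT points at 1296 to 1486.

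The steps of the WT course differed. From day 0 to day 3, 5 collagen genes rose and 10 fell (11.1% and 13.6% of all genes), from day 3 to day 6 5 rose and 14 fell (22.5% and 24%), and from day 6 to day 9 5 rose and 4 fell (8.8% and 5.22%). Day 3 was the highest WT day of Col27a1 (13.4, 13.6 and 13.1, then 48.3, 39.9 and 59.1, 33.2, 22.6 and 21.2 and 15.8, 12.6 and 11.4 CPM at days 0, 3, 6 and 9) and of the transmembrane Col23a1, which was at 8.02, 4.36 and 5.13 CPM on day 3 and at most 1.92 CPM in the other WT libraries. Col28a1, a chain with von Willebrand factor type A domains known from peripheral nerve, made the steepest late gain. Its CPM were 66.6, 69.3 and 93.6 at day 0, 20.7, 18.4 and 17.2 at day 6 and 221, 198 and 196 at day 9 (day 9 against day 6, log2 fold change 3.42 ± 0.29, adjusted p = 5.95e-05).

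Type IV chains, which form the meshwork of basement membranes, differed among themselves, also within the common pair. Col4a1 stood at 3065, 3445 and 2669 CPM at day 0, 3539, 5318 and 4713 at day 3, 4529.7, 4231 and 4774 at day 6 and 2975, 2460.5 and 2953 at day 9, and day 9 against day 0 was not called (log2 fold change -0.13 ± 0.16, adjusted p = 0.463). Its partner Col4a2 was at 2181, 2541 and 1909.8 CPM at day 0 and 1438, 1136 and 1315 at day 9 and fell (log2 fold change -0.77 ± 0.14, adjusted p = 3.73e-04). The per-kilobase ratio of the pair was 1.23 ± 0.0236 at day 0 and 1.92 ± 0.0784 at day 9, with no overlap of libraries. Col4a5 fell from 209, 264 and 207 to 56.4, 43.2 and 62.0 CPM (log2 fold change of -2.08 ± 0.24, adjusted p = 1.70e-05), and Col4a6, which shares its start region, was at 8.67, 18.1 and 11.3 and 2.35, 1.43 and 3.06 CPM and also fell. Col4a3 and Col4a4 were at most 3.71 CPM in any WT preadipocyte library.

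Of the type VI chains, Col6a1 rose from 853, 931 and 978 to 1687, 1343 and 1557 CPM (log2 fold change of 0.73 ± 0.13, adjusted p = 4.06e-04) and Col6a2 from 563, 604 and 599 to 1086, 852 and 1006 (log2 fold change 0.73 ± 0.14, adjusted p = 5.56e-04). Col6a3, the longest chain of the type VI trimer, was at 1474, 1586 and 1316 and 1245, 1149 and 1291 CPM and was not called (log2 fold change -0.25 ± 0.15, adjusted p = 0.148). It fell at day 3, to 564, 877 and 756 CPM (log2 fold change of -0.99 ± 0.15, adjusted p = 3.26e-04), while Col6a1 and Col6a2 rose at that step (0.64 and 0.82 on the log2 scale). The Col6a3 to Col6a1 ratio per kilobase was 0.583 ± 0.0784 at day 0, 0.188 ± 0.0263 at day 3 and 0.296 ± 0.0225 at day 9. Col6a4, Col6a5 and Col6a6 stayed under 1 CPM in every preadipocyte library.

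**Figure D2:**
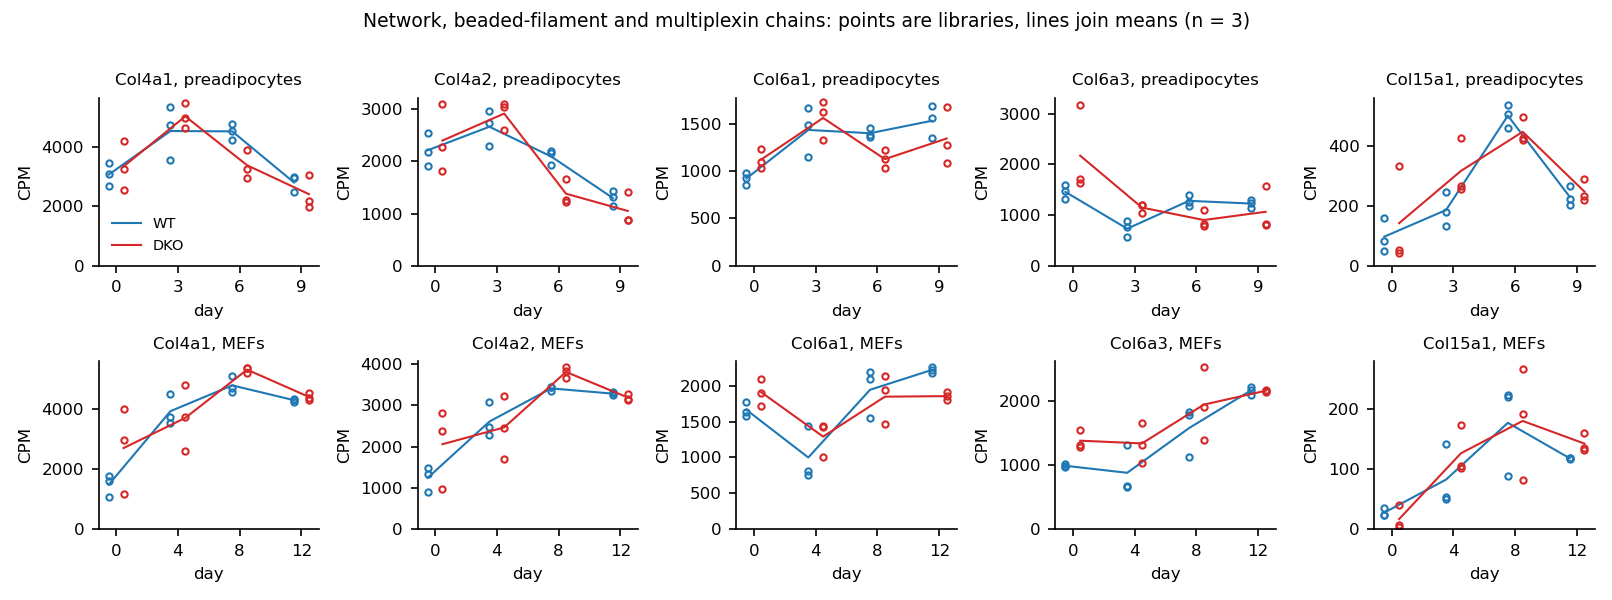
CPM (linear axis from 0) of Col4a1, Col4a2, Col6a1, Col6a3 and Col15a1 by day, with points for libraries and lines through the means of 3 libraries, WT in blue and DKO in red. In WT preadipocytes Col15a1 climbs from 48.8 to 159 CPM at day 0 to 462 to 536 at day 6.

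Among the remaining classes, the short chain Col8a1, of subendothelial matrices, fell from 222, 229 and 378 to 22.9, 1.83 and 1.63 CPM (log2 fold change of -5.0 ± 1.37, adjusted p = 0.00802), with replicate 1 well above the other WT libraries at days 6 and 9. Col10a1, the chain of hypertrophic cartilage, was at 2.49, 6.09 and 1.91 CPM at day 0 and had 0 or 1 count in each day 9 WT library. Of the FACIT chains, which decorate fibrils, Col12a1 fell from 5204, 5437 and 6963 to 1325, 903 and 1095 CPM (log2 fold change of -2.41 ± 0.28, adjusted p = 1.30e-05) and Col16a1 from 232, 275 and 245 to 146, 100.2 and 112 (log2 fold change -1.07 ± 0.20, adjusted p = 5.69e-04). The multiplexin Col15a1, a basement membrane zone proteoglycan, was at 84.4, 159 and 48.8 CPM at day 0, 180.0, 247 and 132 at day 3, 462, 506 and 536 at day 6 and 223, 204 and 265 at day 9. It rose over the course (log2 fold change 1.24 ± 0.37, adjusted p = 0.0125) and fell over its last step (log2 fold change -1.15 ± 0.37, adjusted p = 0.0429). Col18a1, the other multiplexin and the source of endostatin, was at 209, 198 and 94.3 and 179, 177 and 185 CPM and was not called (log2 fold change 0.10 ± 0.32, adjusted p = 0.785).

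As a share of all counts, collagen took 5.39% ± 0.108, 5.09% ± 1.14, 2.54% ± 0.274 and 2.38% ± 0.147 at days 0, 3, 6 and 9 in WT preadipocytes (SD, n = 3). The fibrillar class accounted for most of the loss, at 3.75% ± 0.180 on day 0 and 1.44% ± 0.0582 on day 9, while type VI held 0.317% ± 0.00916 and 0.359% ± 0.0348. Over the same days the summed CPM of 8 adipocyte markers went from 146 to 417 to 28111 to 29298 and that of 8 fibroblast or preadipocyte markers from 2292 to 2597 to 1275 to 1617. Of these 8 fibroblast or preadipocyte markers 3 fell and 1 rose. Among other cell types, 6 of 6 macrophage or other leukocyte markers rose (from 118 to 439 to 2495 to 5354 CPM in sum) and 5 of 6 smooth muscle or pericyte markers fell (from 3243 to 3813 to 38.6 to 152). Their part in the collagen change was not tested. In bulk cultures fewer cells of a type and less RNA per cell cannot be told apart.

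**Figure D3:**
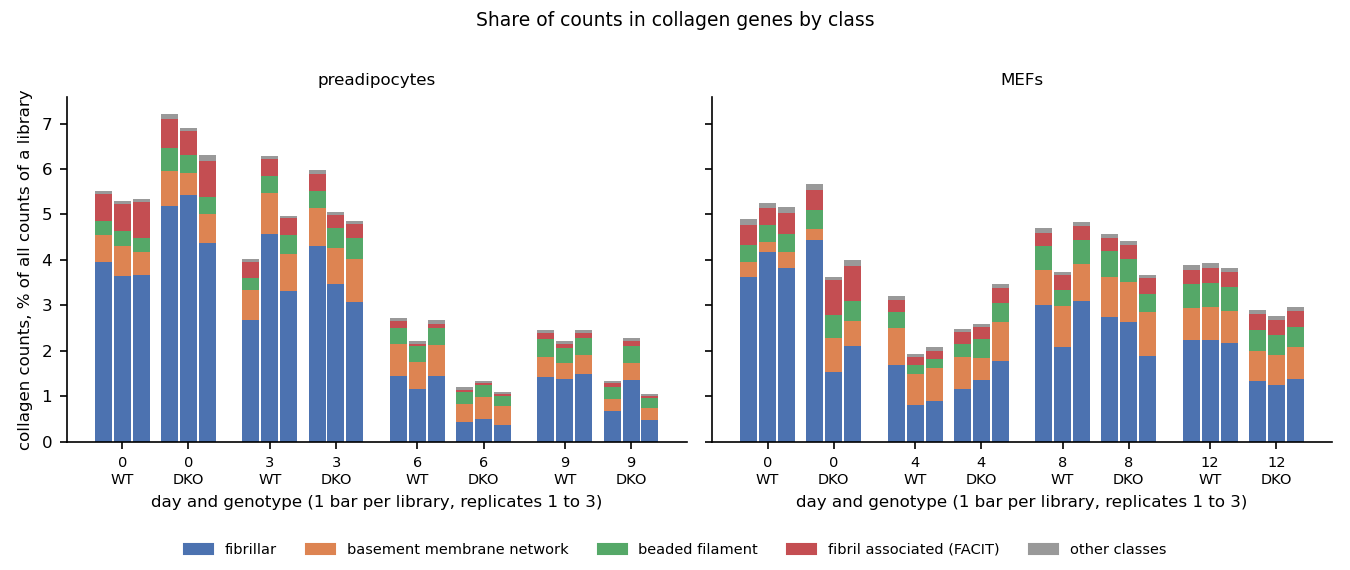
Percent of all counts in collagen genes by class, stacked with 1 bar for each library, for WT and DKO at each day in preadipocytes and MEFs. At preadipocyte day 6 the mean over 3 libraries for all collagen genes is 2.54% in WT and 1.21% in DKO.

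DKO preadipocytes were then set against WT at each day. The result turned with time: collagen levels did not pass the test at days 0 and 3, 8 genes were lower at day 6, and day 9 depended on 1 library.

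At day 0, edgeR called 0 of 32 collagen genes tested (0.218% of all genes in either direction), 10 had an unadjusted p under 0.05 (7.86% of all genes), DESeq2 called 2 and limma-voom 0. The median log2 fold change was 0.26 (0.00 over all genes), and 24 of 32 values were positive. Col3a1 was at 15268, 20711 and 10516 CPM in DKO and 9355, 8560.4 and 8212 in WT (log2 fold change 0.83 ± 0.24, adjusted p = 0.454), and Col1a1 at 13532, 11289 and 11439 and 10063, 9532 and 9322 (log2 fold change 0.33 ± 0.11, adjusted p = 0.533). Every DKO library was above every WT library in both genes, yet neither passed the adjusted test. The groups did not overlap in 11 of the 32 collagen genes and in 14.9% of all genes. All collagen genes took 7.22, 6.90 and 6.30% of counts in the DKO libraries and 5.51, 5.30 and 5.35% in the WT ones. At day 3, 0 of 29 were called (0.337% of all genes), 4 had an unadjusted p under 0.05 (12.2%), DESeq2 called 1 and limma-voom 0. Col3a1 then stood at 27582, 21111 and 16483 CPM in DKO and 14586, 27191 and 18343 in WT, and the groups overlapped.

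At day 6, 0 collagen genes were higher and 8 of 28 were lower in DKO cells, against 5.03% and 6.53% of the 14694 genes tested. The median was -0.62 (-0.01 over all genes), and 24 of 28 values were negative. Of the 8, 6 were fibrillar, out of 10 fibrillar genes tested. Col1a1 was at 452, 494 and 442 CPM in DKO against 1416, 1296 and 1486 in WT (log2 fold change -1.63 ± 0.10, adjusted p = 2.34e-04). Col1a2, its partner in the type I trimer, was at 804, 817 and 676 against 2407, 1753 and 2236 (log2 fold change -1.51 ± 0.15, adjusted p = 0.00169). Col3a1 was at 2129, 3243 and 2011 against 8218, 7187 and 8723 (log2 fold change -1.75 ± 0.19, adjusted p = 0.00264). No DKO library reached the lowest WT library in any of these genes. The groups did not overlap in 16 of the 28 collagen genes and in 43% of all genes. The type V chains Col5a1 (406, 381 and 305 against 835, 645 and 747 CPM, log2 fold change of -1.07 ± 0.14, adjusted p = 0.0044) and Col5a2 (536, 623 and 452 against 1026, 873 and 933, log2 fold change -0.85 ± 0.13, adjusted p = 0.00593) were lower as well. Col11a1 had the largest fall on the log2 scale at a far lower level (17.6, 17.9 and 8.94 against 107, 45.0 and 73.7 CPM, log2 fold change of -2.39 ± 0.42, adjusted p = 0.0159).

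Outside the fibrillar class, the multiplexin Col18a1 (82.9, 87.0 and 73.2 against 141, 159 and 193 CPM, log2 fold change of -1.06 ± 0.12, adjusted p = 0.00325) and the type IV chain Col4a2 (1221, 1656 and 1265 against 2158, 1925 and 2194, log2 fold change -0.64 ± 0.14, adjusted p = 0.0158) were lower at day 6. Its partner Col4a1 passed the adjusted p at less than 1.5-fold (2962, 3897 and 3263 against 4529.7, 4231 and 4774 CPM, log2 fold change of -0.46 ± 0.13, adjusted p = 0.0403), as did the type VI chains Col6a1 (-0.35) and Col6a3 (-0.54). A pair of chains that rose over the WT course did not pass: Col5a3 was at 273, 291 and 256 against 278, 359 and 294 CPM, and Col15a1 at 419, 497 and 426 against 462, 506 and 536. Col8a1 (log2 fold change -3.21 ± 1.5) and Col14a1 (-1.97 ± 0.88) had large values and large errors, and WT replicate 1 alone was high (49.1, 2.77 and 1.57 CPM of Col8a1 and 76.1, 14.1 and 9.04 of Col14a1).

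Marker sums of several cell types also stood apart between genotypes at day 6, although few single markers were called: 1 of 7 adipocyte markers tested (higher), 2 of 7 fibroblast or preadipocyte markers (lower) and 1 of 6 leukocyte markers, Lyz2 (lower). Of 4 Schwann cell markers 1 was higher and 1 lower (4.45 to 13.5 CPM in sum in DKO and 15.4 to 18.2 in WT). Of 5 smooth muscle or pericyte markers tested 1 was higher. The summed adipocyte markers were at 29344 to 36286 CPM in DKO libraries and 22362 to 26776 in WT libraries, the fibroblast or preadipocyte markers at 720.5 to 1053 and 1331 to 1797, and the 6 macrophage or other leukocyte markers at 1797 to 3732 and 4811 to 8154. Of the leukocyte sum most was Lyz2, and Ptprc, the gene of the pan-leukocyte antigen CD45, was at 23.4, 6.48 and 17.0 against 25.0, 36.9 and 34.9 CPM. The part of these cell types in the collagen differences was not tested. The defining markers of osteoblasts, another maker of type I collagen, were near 0 (Sp7 at most 0.110 CPM and Ibsp at most 0.0457 at day 6).

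**Figure D4:**
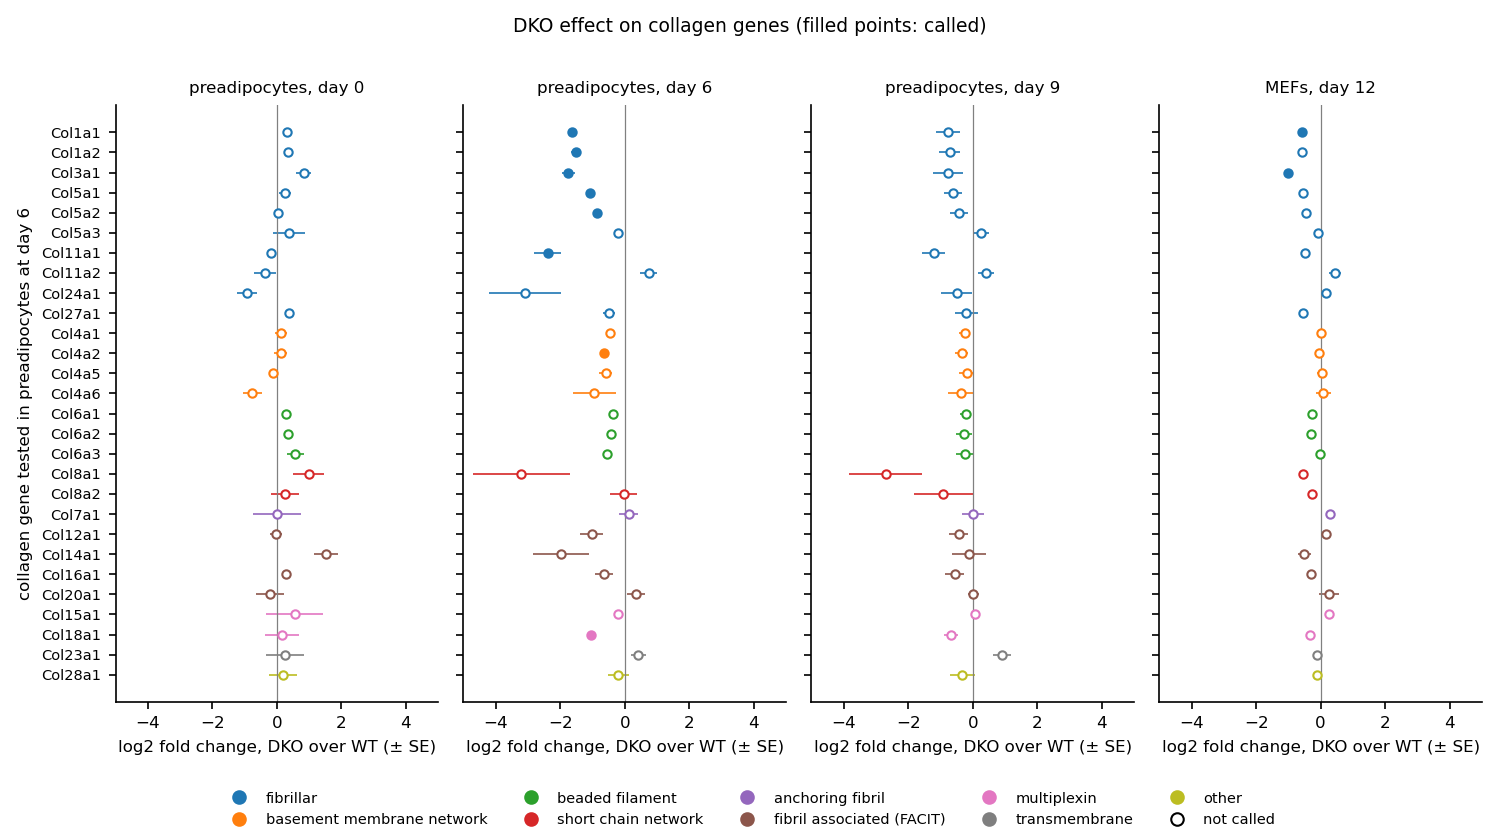
Log2 fold change of DKO over WT for the 28 collagen genes tested in preadipocytes at day 6, in preadipocytes at days 0, 6 and 9 and in MEFs at day 12, coloured by class, with bars of 1 standard error and filled points for called genes. The filled points of preadipocyte day 6 lie between -2.39 and -0.64, and day 9 has none.

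At day 9, edgeR called 0 of 28 collagen genes (1.24% of all genes in either direction), 3 had an unadjusted p under 0.05 (27.1% of all genes), DESeq2 called 2 and limma-voom 0. DKO replicate 2 was at WT level: Col3a1 was at 2408, 6669 and 1831 CPM in DKO replicates 1, 2 and 3 and at 5853, 6240.0 and 6194 in WT, and Col1a1 at 1471, 2881 and 964 against 2817, 2724 and 3336. Without that library 10 genes were lower and 1 higher, where 6.79% and 2.93% of all genes were. The 10 included Col3a1 (log2 fold change -1.55 ± 0.13, adjusted p = 0.00135), Col18a1 (log2 fold change -0.97 ± 0.07, adjusted p = 9.80e-04), Col1a1 (-1.31), Col1a2 (-1.14), Col5a2 (-0.81) and Col4a2 (-0.60), and the transmembrane Col23a1 was the higher one (1.07). Leaving out any other library of that day gave 0. The fibroblast markers of DKO replicate 2 also stood with WT: their sums were 709 to 1528 CPM over the DKO libraries and 1275 to 1617 over the WT ones, and adipocyte sums were 36309 to 43198 and 28111 to 29298. Their part was not tested.

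The change of the DKO effect with time was tested directly, over all 4 days and for day 6 minus day 0. Day 6 was the only preadipocyte day with collagen genes called by edgeR, whereas the matching MEF test used the last day. Over the 4 days, 3 of 34 collagen genes passed the genotype by day test, Col1a2 (adjusted p = 0.0158), Col1a1 (0.0277) and Col3a1 (0.0446), where 2.08% of all genes passed. That count was 0 without WT replicate 3 or DKO replicate 3 of day 6, and 8 without DKO replicate 2 of day 9. For day 6 minus day 0, 0 genes had a higher and 8 of 34 a lower effect (2.04% and 1.45% of all genes): Col3a1 (-2.54 ± 0.34 on the log2 scale, adjusted p = 0.00793), Col11a1 (-2.16 ± 0.43), Col1a1 (-1.93 ± 0.15, adjusted p = 3.24e-04), Col1a2 (-1.82 ± 0.19, adjusted p = 0.00201), Col5a1 (-1.29 ± 0.25), Col5a2 (-0.85 ± 0.20), Col6a2 (-0.74 ± 0.16) and Col6a1 (-0.60 ± 0.14). With 1 library left out, the count was 3 without WT replicate 1 of day 0, without WT replicate 1 or 3 of day 6 or without DKO replicate 3 of day 6, 4 without DKO replicate 2 of day 0, 5 without WT replicate 2 of day 0 and 6 to 8 otherwise.

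DKO cells traversed the course with 3 genes up and 17 down of 31 from day 0 to day 9 (26.6% and 29% of all genes), against 8 and 12 of 32 in WT. The 3 were Col5a3 (114, 35.0 and 41.5 to 399, 744 and 449 CPM), Col11a2 (log2 fold change 2.49 ± 0.31, adjusted p = 3.04e-05) and Col20a1 (log2 fold change 1.68 ± 0.32, adjusted p = 7.19e-04), all of which rose in WT too. Col6a1 (0.25 ± 0.16) and Col6a2 (0.14 ± 0.23), which rose in WT, were not called in DKO, and Col3a1 fell (15268, 20711 and 10516 to 2408, 6669 and 1831 CPM, log2 fold change of -2.10 ± 0.47, adjusted p = 0.0022). Col10a1 had 0 counts in all 3 DKO libraries of day 9. Without DKO replicate 2 of day 9 the DKO count went from 20 to 25. Whether the change from day 0 to day 9 differed between genotypes was not tested on its own.

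Genes that make, process and bind collagen were read from a list of 50, of which 48 were tested. In DKO preadipocytes at day 6, 18 were lower and 0 higher (6.53% and 5.03% of all genes), with 4 of 5 cross-linking genes (Lox, Loxl1, Loxl2 and Loxl3), 4 of 14 hydroxylation and glycosylation genes, 4 of 7 propeptide processing genes, and 2 each of the chaperones, the fibril-binding proteins and the receptors. Those of smallest p were Serpinh1, the collagen chaperone HSP47 (267, 293 and 243 against 455, 443 and 471 CPM, log2 fold change of -0.81 ± 0.09, adjusted p = 0.00307), the collagen uptake receptor Mrc2 (log2 fold change -1.0 ± 0.12, adjusted p = 0.00351) and the procollagen chaperone Fkbp10 (log2 fold change -0.98 ± 0.12, adjusted p = 0.00366). At preadipocyte days 0, 3 and 9 edgeR called 0 of these. Over the WT course to day 9, 33 of 48 fell and 4 rose (27% and 25.8% of all genes). The falls of smallest p were those of the procollagen protease Tll1 (-5.57), Fkbp10 (-2.75) and Mrc2 (-2.33). Among the 4 that rose were Adamts2, the procollagen N-proteinase (0.86), the lysyl hydroxylase Plod1 (0.62) and the collagenolytic cathepsin Ctsk (0.89). In DKO cells 35 fell and 0 rose over the same course (29% and 26.6%).

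In MEFs the WT course was steepest at its first step. From day 0 to day 4, 7 of 40 collagen genes rose and 23 fell (14.8% and 18.4% of all genes). The median log2 fold change was -1.40 (0.04 over all genes). Col1a1 went from 8093, 9317 and 8572 to 2320.3, 798 and 987 CPM (log2 fold change of -2.67 ± 0.45, adjusted p = 7.05e-04) and Col1a2 from 10804, 12228 and 11584 to 3349.5, 1240.3 and 1399 (log2 fold change -2.54 ± 0.38, adjusted p = 3.22e-04). Col3a1 fell less (9367, 11270.0 and 9921 to 6448, 3007 and 3141 CPM, log2 fold change of -1.28 ± 0.25, adjusted p = 0.00133). In these genes day 4 replicate 1 was nearest to day 0, and no day 4 library reached the day 0 range. Over all genes 61.8% had no overlap between these days. Col11a1 (log2 fold change -2.10 ± 0.16, adjusted p = 1.76e-06) and Col16a1 (log2 fold change -1.81 ± 0.14, adjusted p = 2.34e-06) had the smallest p of the falls. The pair Col4a1 (1606, 1077 and 1758 to 4525, 3534 and 3755 CPM, log2 fold change of 1.41 ± 0.16, adjusted p = 2.18e-05) and Col4a2 (1334, 902 and 1484 to 3071, 2269.9 and 2479, log2 fold change 1.07 ± 0.16, adjusted p = 1.86e-04) rose, as did both multiplexins, Col18a1 (log2 fold change 1.03 ± 0.15, adjusted p = 1.89e-04) and Col15a1 (log2 fold change 1.58 ± 0.44, adjusted p = 0.0121). At this step 7 of 8 adipocyte markers and 1 of 8 fibroblast or preadipocyte markers rose. Those that fell were 5 of 8 fibroblast or preadipocyte markers (1974 to 2143 to 1604 to 1936 CPM in sum), 5 of 6 leukocyte markers (6344 to 8412 to 4155 to 5713), 3 of 6 smooth muscle or pericyte markers (485 to 821 to 91.1 to 247) and 3 of 4 endothelial markers tested. Their part was not tested.

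From day 4 to day 8, 7 collagen genes rose and 0 fell (1.03% and 0.697% of all genes), among them Col3a1 (6448, 3007 and 3141 to 13397, 10836 and 13877 CPM, log2 fold change of 1.59 ± 0.25, adjusted p = 0.016). WT replicate 1 of day 4 and replicate 2 of day 8 stood apart here: Col1a1 was at 2320.3, 798 and 987 and 5034, 1870.0 and 5257 CPM at these days. The count was 22 without the first, 24 without the second and 0 without any of the other 4 libraries of these days. From day 8 to day 12, 5 rose and 5 fell (12.5% and 8.73%). Col28a1 rose at this step, from 121, 23.4 and 121 to 338, 340.4 and 335 CPM (log2 fold change of 1.87 ± 0.67, adjusted p = 0.0484), as at the last step in preadipocytes. The low day 8 value is that of WT replicate 2, which stood apart. By the protocol the first medium ended at day 8 in MEFs but before day 6 in preadipocytes, so the 2 steps differ in treatment. The count for the MEF step was 5 without WT replicate 2 of day 12, 6 without replicate 1 of day 8 or of day 12 and 8 without replicate 2 of day 8.

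Over the whole WT MEF course, 5 of 40 rose and 16 fell (12.5% and 13.8% of all genes). Those that rose were Col4a1 (1606, 1077 and 1758 to 4344, 4316 and 4249 CPM, log2 fold change of 1.46 ± 0.16, adjusted p = 2.52e-05), Col4a2 (log2 fold change 1.33 ± 0.16, adjusted p = 5.70e-05), Col15a1 (23.7, 34.7 and 23.9 to 119, 117 and 118, log2 fold change 2.03 ± 0.45, adjusted p = 0.00437), Col6a3 (970.3, 984 and 1018 to 2104, 2219 and 2182, 1.05 on the log2 scale) and Col28a1 (2.35). Of 10 fibrillar genes 0 rose and 4 fell, Col5a1, Col5a2, Col11a1 and Col24a1. Col1a1, at 5099, 5099.6 and 4855 CPM on day 12, was below all day 0 libraries but was not called (log2 fold change -0.86 ± 0.43, adjusted p = 0.13). Col14a1, a FACIT chain, fell by 3.21 on the log2 scale (279, 499.7 and 275 to 41.4, 39.3 and 39.6 CPM). Col15a1 and Col28a1 rose over the full course in WT cells of both kinds, whereas the Col4a1 and Col4a2 pair rose in MEFs and Col4a2 fell in preadipocytes; the difference between cell types was not tested. In DKO MEFs 2 of 41 rose, Col15a1 and Col6a3, and 9 fell (15.6% and 9.97% of all genes), 11 in all, which became 5 without any 1 library of day 12, 7 without replicate 1 of day 0 and 18 without replicate 2 of day 0. All collagen took 5.11% ± 0.183, 2.41% ± 0.695, 4.43% ± 0.596 and 3.88% ± 0.0484 of counts at days 0, 4, 8 and 12 in WT MEFs.

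Between genotypes, edgeR called 0 of 42, 33 and 36 collagen genes in MEFs at days 0, 4 and 8, where 0.102%, 0.0905% and 0.0595% of all genes were called. Unadjusted p was under 0.05 in 3, 5 and 3 of them (9.28%, 5.91% and 8.57% of all genes), DESeq2 called 0, 1 and 1, and limma-voom 0 on each day. At day 8, 1 library of each genotype was low: Col1a1 was at 4642, 4372 and 1794 CPM in DKO and 5034, 1870.0 and 5257 in WT. Leaving out any 1 library left the count at 0. Each such fit kept at least 1 of the low libraries, so it cannot show what they do to the count. At day 0 the DKO libraries were far apart over all genes in every pair, not only in pairs with replicate 1 (chi-square per degree of freedom 97.9 to 153.8). In Col1a1, DKO replicate 1 was at WT level: the DKO libraries were at 9476, 2589 and 3660.4 CPM and the WT ones at 8093, 9317 and 8572. Without that library 4 were lower, Col1a1 (log2 fold change -1.47 ± 0.19, adjusted p = 0.0311), Col1a2 (-1.04), Col5a1 (-1.03) and Col15a1 (-2.39), and 2 higher, Col7a1 (2.01) and Col12a1 (1.00), against 2.21% and 1.07% of all genes.

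At day 12, 4 collagen genes were lower and 1 higher in DKO MEFs, of 37 tested (4.05% and 3.92% of all genes). The median was -0.11 (0.00 over all genes). Col3a1 was at 4040.4, 3689 and 4177 CPM in DKO against 7949, 7801 and 7702 in WT (log2 fold change -1.0 ± 0.05, adjusted p = 1.30e-09), and Col1a1 at 3268, 3420.5 and 3471 against 5099, 5099.6 and 4855 (log2 fold change -0.59 ± 0.05, adjusted p = 8.18e-08). The groups did not overlap in either gene, as was so for 24 of the 37 collagen genes and 47% of all genes. The less common type VI chains Col6a5 (0.760, 0.309 and 0.435 against 2.46, 2.25 and 1.72 CPM, log2 fold change of -2.07 ± 0.35, adjusted p = 2.51e-04) and Col6a6 (0.549, 1.2 and 1.03 against 1.72, 1.78 and 1.76) were lower. The transmembrane Col25a1 was higher, at 1.14, 1.49 and 1.85 against 0.591, 0.653 and 0.440 CPM (log2 fold change of 1.36 ± 0.34, adjusted p = 0.00562). A further 14 passed the adjusted p below 1.5-fold (19 of 37 at any fold, where 33.0% of all genes passed), among them Col1a2 (-0.57), Col5a1 (-0.54), Col5a2 (-0.46) and Col11a1 (-0.50). Col4a1 (4322, 4389 and 4532 against 4344, 4316 and 4249 CPM) and Col4a2 (3164, 3137 and 3273 against 3291, 3315 and 3246) were not called.

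The WT libraries of MEF day 12 were closer to each other than those of nearly all other groups (chi-square per degree of freedom 2.14 to 3.42 between pairs, over a range of 2.11 to 153.8 in the study). The standard errors of the day 12 values rest on these libraries. With all 24 MEF libraries in 1 fit the count was 0, and it was 3 without WT replicate 1 or 2, 9 without DKO replicate 2 and 8 without DKO replicate 3. At day 12 adipocyte markers summed to 28722 to 30239 CPM in DKO libraries and 18843 to 19231 in WT libraries, with 6 of 8 called higher. Leukocyte markers summed to 2528 to 2897 and 4002 to 4052, with 1 of 6 called lower, and smooth muscle or pericyte markers to 134 to 252 and 289 to 296, with 3 of 6 lower. Fibroblast or preadipocyte markers summed to 1370.5 to 1634 CPM in DKO libraries and 1767 to 1774.5 in WT libraries, with 1 of 8 lower. Of 3 Schwann cell markers tested 2 were lower and 1 higher (37.6 to 52.9 against 76.6 to 82.8 CPM in sum), and of 4 endothelial markers 2 were lower. Of 3 epithelial markers tested 2 were higher, and the 1 chondrocyte marker tested was lower. Their part was not tested. Of the genes that make and bind collagen 7 of 48 were lower and 0 higher (4.05% and 3.92% of all genes), led by the procollagen C-proteinase Bmp1 (log2 fold change -0.74 ± 0.04, adjusted p = 4.51e-09), the procollagen protease Adamts3 (-0.96) and the lysyl oxidase Loxl4 (-0.60). No collagen gene passed the test of a DKO effect that differed over the 4 MEF days (0 of 43, 1 with an unadjusted p under 0.05 against 9.24% of all genes, 0.0177% of all genes passed), nor that of day 12 minus day 0 (0 of 41, 4 with an unadjusted p under 0.05 against 15.5% of all genes, 1.42% of all genes, 0 by DESeq2). Without DKO replicate 1 of day 0 the counts were 3 and 7.

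**Figure D5:**
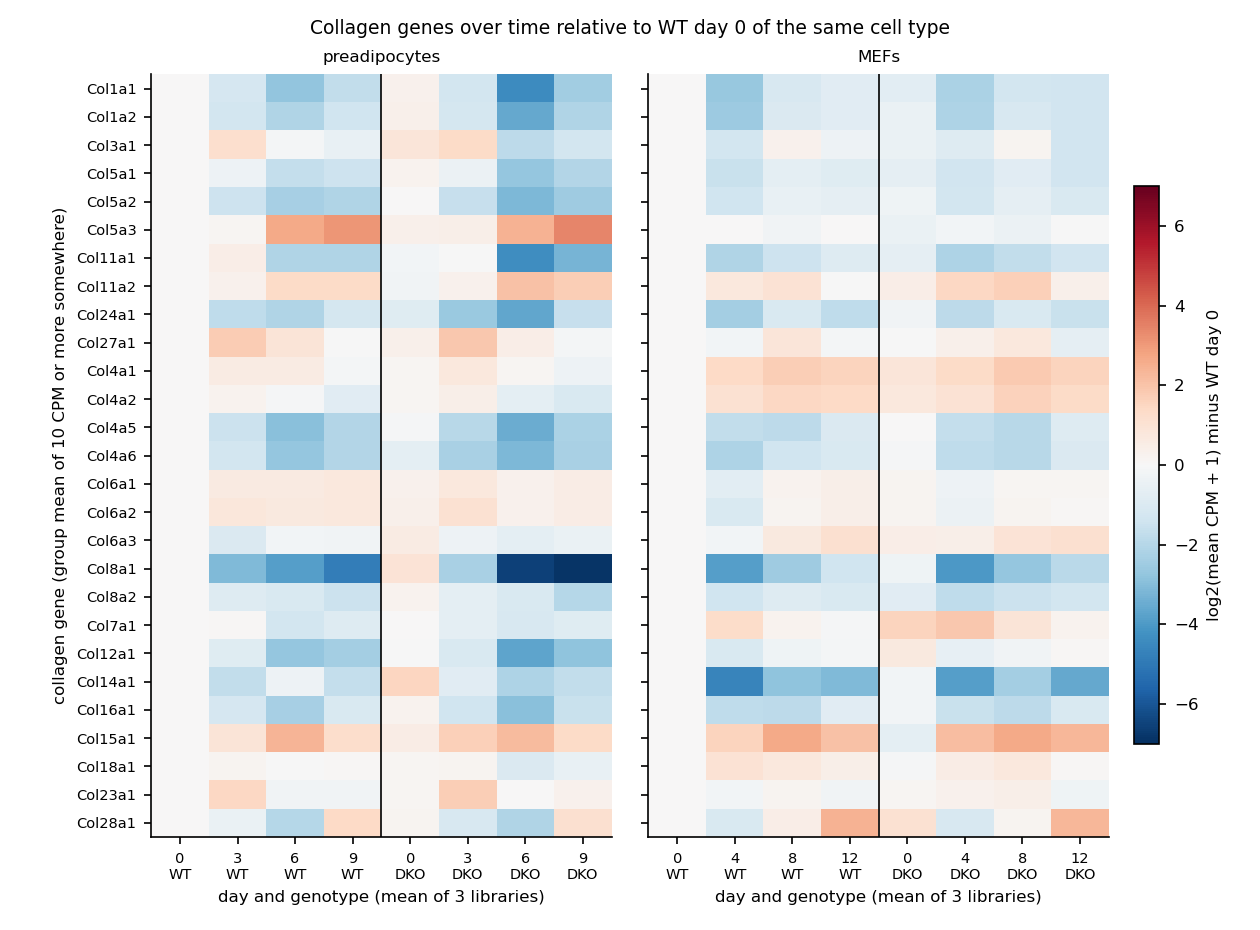
Log2 of group mean CPM plus 1, minus that of WT day 0 of the same cell type, for the 27 collagen genes with a group mean of at least 10 CPM, with genes in rows, days and genotypes in columns, blue for lower and red for higher. Col5a3 is red in preadipocytes at days 6 and 9 of both genotypes, and Col4a1 and Col4a2 are red in MEFs after day 0.

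Of all members, Col1a1, Col3a1, Col5a2 and Col11a1 were called most often, in 10 of 23 comparisons each. Col2a1, Col9a1, Col17a1 and Col19a1 were tested in 2 to 11 comparisons and called in 0, and Col13a1 passed the count filter in none.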

How the data were processed

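Expected counts per gene were deposited as 1 table per cell type (24 libraries each). The authors sequenced paired-end reads, and the submitters' processing notes name bcl2fastq 2.17, cutadapt 1.18, STAR 2.7.0f, RSEM 1.3.0 and mm10. RSEM divides reads that match several genes, so similar chains may share reads. Whether counting used strand is not given in the sources used here. The labels say polyA RNA, while the study's methods name a stranded total RNA kit. The expected counts had no normalization, and 5.49 to 7.90% of all values of a library, zeros included, were not whole. There were 0 other value columns.

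Expected counts were rounded and analysed in R 4.3.3 with edgeR 4.0.16 (filterByExpr, TMM, robust quasi-likelihood test) on the whole table, with p-values adjusted over all genes tested. Genotypes were compared within each day from the 6 libraries of that day. Days were compared in 1 fit of the 12 libraries of a genotype, and the change of the DKO effect with time by interaction terms. The depth of 18962481 to 36006679 counts per library makes counting error small for the abundant chains, while chains under 1 CPM rest on few counts. Levels per kilobase used the exon union of GENCODE M21, which matched all 55450 identifiers. Gly-X-Y triplets were counted from its coding sequences in place of the reference proteins that had been planned, with at least 5 triplets to a run. Upstream windows came from RefSeq.

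Every collagen gene could be named. Values in each library are given for the major chains and for up to 3 called genes of smallest p per direction and comparison, with the same limit for genes that make and bind collagen, and some further chains were named after their values were seen. The members and lists were chosen with earlier results of these data known. Replicate numbers are shared between groups. Correlations of same-numbered libraries' deviations exceeded 0.1 in all 3 pairs for WT preadipocytes at days 6 and 9 (0.13 to 0.45), DKO at days 6 and 9 (0.37 to 0.46) and DKO at days 0 and 3 (0.41 to 0.56), and not between genotypes. The alternatives were DESeq2 1.42.0, limma 3.58.1 (voom with quantile normalization), library size scaling, other filters and thresholds, fits over other library sets, the replicate block and each library left out in turn. The fits were tested on simulated data.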

Additional observations from a re-analysis of the deposited data

Results flagged for a closer look

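By a test of the difference itself, the DKO effect on preadipocytes differed between day 6 and day 0 for 8 collagen genes. Day 6 was the only preadipocyte day at which edgeR called collagen genes between genotypes. Over all 4 days the genotype by day terms passed for 3 of them, Col1a2 (adjusted p = 0.0158, edgeR), Col1a1 (adjusted p = 0.0277) and Col3a1 (adjusted p = 0.0446). That count was 0 without WT replicate 3 or without DKO replicate 3 of day 6.

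For day 6 minus day 0 the log2 difference of the DKO effect was -2.54 for Col3a1, -2.16 for Col11a1, -1.93 for Col1a1, -1.82 for Col1a2, -1.29 for Col5a1, -0.85 for Col5a2, -0.74 for Col6a2 and -0.60 for Col6a1. Each of the 8 had a day 6 DKO mean below WT. Of the 16 alternatives tried for each, Col3a1, Col1a1 and Col1a2 kept their call under 16, Col5a1 lost it under 4, Col6a2 under 6, Col6a1 under 8 and Col5a2 and Col11a1 under 9 each, and no value changed sign.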

How the results depend on the processing

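Calls of single collagen genes were refitted 2296 times over 213 pairs of gene and comparison. Of these 2041 kept direction and call, 255 kept direction and lost the call, and 0 changed sign. With DESeq2 the genotype counts became 2 at preadipocyte day 0, 1 at day 3 and 2 at day 9, and 1 at MEF days 4 and 8. DESeq2 also gave 20 for WT MEFs from day 4 to day 8 and 21 for DKO MEFs from day 0 to day 12. A single fit over all 24 libraries gave 1 at preadipocyte day 9 and 0 at MEF day 12. MEF day 12 counted 9 with scaling by library size, 3 with a log2 fold change of at least 1 and 19 with no fold threshold. Scaling by library size gave 12 for WT MEFs from day 4 to day 8 and 21 for the DKO MEF course (1 higher and 20 lower, against 2 and 9), and it split the WT preadipocyte course into 6 and 14, against 8 and 12. No filter on low counts gave 1 for the 4-day interaction in preadipocytes, 2 for WT MEFs from day 4 to day 8 and 6 from day 8 to day 12. The DKO MEF course gave 7 with only its 6 end libraries. The cause of these shifts was not tested. Scaling by library size moved the median log2 fold change of all genes by -0.15 over the WT and -0.26 over the DKO preadipocyte course, -0.17 from day 3 to day 6 in WT, -0.11 for day 6 minus day 0 of the DKO effect, 0.13 and -0.14 over WT MEF days 0 to 4 and 4 to 8, -0.26 over the DKO MEF course and 0.11 between cell types, and by less than 0.1 elsewhere.

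The replicate block gave 5 for day 6 minus day 0 in preadipocytes and 6 for the DKO MEF course, where the numbers did not pair the libraries. Where they did, in WT preadipocytes from day 6 to day 9, it left the count at 9, and no other count moved by over 1.5 times. A fit of only those 6 libraries with the block, chosen after seeing the data, gave 12.

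With 1 library left out, the counts ranged from 6 to 11 at preadipocyte day 6, 0 to 11 at day 9, 19 to 21 over the WT course, 13 to 16, 19 to 21 and 6 to 11 over its 3 steps, 20 to 25 over the DKO course, 0 to 8 for the 4-day interaction and 3 to 8 for day 6 minus day 0. In MEFs they ranged from 0 to 6 at day 0, 3 to 9 at day 12, 16 to 19 over the WT course, 28 to 32, 0 to 24 and 5 to 8 over its steps, 5 to 18 over the DKO course, 0 to 3 for the 4-day interaction and 0 to 7 for day 12 minus day 0. Between cell types they ranged from 28 to 31. At preadipocyte days 0 and 3 and MEF days 4 and 8 they stayed at 0.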
